A study of Mus musculus with 6 samples.

Results

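Small nucleolar RNA (snoRNA) genes were examined in ribosomal-RNA-depleted total RNA from fresh mouse splenocytes, with 3 libraries of wild-type genotype (WT) and 3 of Top3b-knockout genotype (Top3b-KO). The members are all symbols of the deposited count table that begin with Snora or Snord followed by a digit. There were 148 such symbols among 56413, of which 40 were box H/ACA genes (Snora) and 108 were box C/D genes (Snord). The labels give the tissue (spleen), the cells (total splenocytes) and the genotype, and name no treatment. Strain, age and allele structure were not given in the sources used here. Nor do the labels say whether the libraries of a genotype came from separate animals. Each p-value below therefore rates a genotype difference against the variation between these libraries, which may not cover that between animals. The study asked what topoisomerase III-beta, the protein encoded by Top3b, does in tumour prevention and immune regulation.

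SnoRNAs are short guide RNAs of the nucleolus, where ribosomes are made. Box C/D snoRNAs bind Fbl, Nop56, Nop58 and Snu13 and direct methylation of ribose in ribosomal RNA, whereas box H/ACA snoRNAs bind Dkc1, Nhp2, Nop10 and Gar1 and direct the conversion of uridine to pseudouridine. A few, such as U3 (the Snord3 genes), U8 (Snord118), U13 (Snord13) and U17 (Snora73a and Snora73b), act in processing of the ribosomal RNA precursor. Most mammalian snoRNAs are encoded in introns of other genes, called hosts, and are trimmed out of the excised intron, while U3, U8 and U13 have promoters of their own.

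The sequences below are those of the members with the most counts, of an uncounted neighbour of a counted gene (Snord15b), of U8, and of members whose genotype values are described in detail. They were taken by symbol from the GENCODE M21 transcripts (GRCm38) and are written 5′ to 3′ in DNA letters. In the Snord sequences, capitals mark the C box (ATGATGA or GTGATGA within the first 60 bases) and the D box (CTGA within the last 20 bases). In the Snora sequences, capitals mark the H box (ANANNA within 15 bases of the middle) and the ACA box (ACA with 3 bases after it).
Snord17: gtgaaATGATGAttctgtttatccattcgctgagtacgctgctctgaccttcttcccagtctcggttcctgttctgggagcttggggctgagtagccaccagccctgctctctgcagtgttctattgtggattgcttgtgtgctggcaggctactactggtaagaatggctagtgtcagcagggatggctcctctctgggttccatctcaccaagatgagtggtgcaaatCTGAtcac
Snord43: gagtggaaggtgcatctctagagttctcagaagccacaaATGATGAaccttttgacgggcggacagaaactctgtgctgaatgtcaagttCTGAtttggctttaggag
Snord83b: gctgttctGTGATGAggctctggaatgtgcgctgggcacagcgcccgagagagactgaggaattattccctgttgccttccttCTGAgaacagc
Snord15a: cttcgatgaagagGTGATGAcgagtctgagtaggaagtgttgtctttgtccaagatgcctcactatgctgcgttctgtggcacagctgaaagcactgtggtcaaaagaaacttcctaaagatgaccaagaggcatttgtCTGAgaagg
Snord15b: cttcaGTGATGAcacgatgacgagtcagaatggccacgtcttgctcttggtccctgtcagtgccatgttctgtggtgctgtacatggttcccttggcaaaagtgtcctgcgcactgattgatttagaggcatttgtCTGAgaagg
Snord118: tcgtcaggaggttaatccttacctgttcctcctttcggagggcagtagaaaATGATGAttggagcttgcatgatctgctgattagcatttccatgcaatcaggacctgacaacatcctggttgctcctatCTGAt
Snora31: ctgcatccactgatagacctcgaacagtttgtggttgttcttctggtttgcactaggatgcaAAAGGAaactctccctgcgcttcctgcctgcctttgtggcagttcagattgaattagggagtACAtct
Snora78: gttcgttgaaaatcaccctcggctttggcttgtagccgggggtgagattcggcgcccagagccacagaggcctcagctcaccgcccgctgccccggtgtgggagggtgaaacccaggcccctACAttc

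The gene names already follow the box class, and the C, D and ACA boxes were found mainly in the class they define. All boxes were searched on the transcribed strand of the 98 Snord and 40 Snora genes with a GENCODE sequence. The windows were set after the sequences had been seen. A C box together with a D box was found in 70 Snord genes (71.4%), in 0 Snora genes and in 0.09% of the 140013 other GENCODE transcripts of at least 60 bases. The D box letters alone were found in 96 Snord genes (98%) and 4 Snora genes (10%), beside 8.97% of the other transcripts. The ACA box stood at the end of 34 Snora genes (85%), of 0 Snord genes and of 2.28% of the other transcripts. The H box is loosely defined, and its letters were found in 36 Snora genes (90%), 55 Snord genes (56.1%) and 42.1% of the other transcripts. Snora78, printed above, had an ACA box and no H box match in the window searched. The median annotated length was 84.5 bases for Snord genes and 132.5 bases for Snora genes, within a range of 64 to 238.

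Few snoRNA genes carried many counts. Of the 148 genes, 86 were listed at 0 in all 6 libraries and 62 had a count in at least 1 library. The filter on low counts passed 32 genes, 23 Snord and 9 Snora, and the other 30 genes with counts had between 2 and 60 over the 6 libraries. Snord17 alone held 52.0% to 56.0% of the Snord counts of a library, and Snora31 held 48.2% to 60.1% of the Snora counts. The median total of a tested member was 180.5 counts, against 1164 over all tested genes. Library totals ran from 9941019 counts in Top3b-KO replicate 3 to 25473405 in Top3b-KO replicate 2. The 3 counts that a listed 0 allows correspond to between 0.119 and 0.304 CPM (counts scaled to a common library size), a limit that covers counting error only.

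Whether a member had counts went with its place in the annotation. In GENCODE M21, 65 of 138 snoRNA genes overlap an exon of another gene on the same strand, and 56 of these 65 (86.2%) were listed at 0. The remaining 9, among them Snora15 with 31 counts, Snora5c with 29 and Snord42b with 27, were too low to be tested. Among the 73 genes without such an overlap, 29 (39.7%) were listed at 0 and 31 were tested. Of those 29, 17 were copies of Snord116, and without them 12 of 56 (21.4%) were at 0. The overlapping exon belonged to a transcript annotated as a retained intron for 41 of the 56 uncounted genes.

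The hosts of the overlapping genes had the higher median level. For members with a host at 10 CPM or more, 51 of 60 overlapping genes (85%) and 8 of 43 others (18.6%) were listed at 0, with a median host level of 225 CPM and 171 CPM. Of the 87 members shorter than 101 bases, 59 were at 0, and of the 53 others with a known length 26 were. The annotation behind the count table and its rule for reads that match more than 1 gene were not given in the sources used here, and their part in the zeros was not tested.

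**Figure D1:**
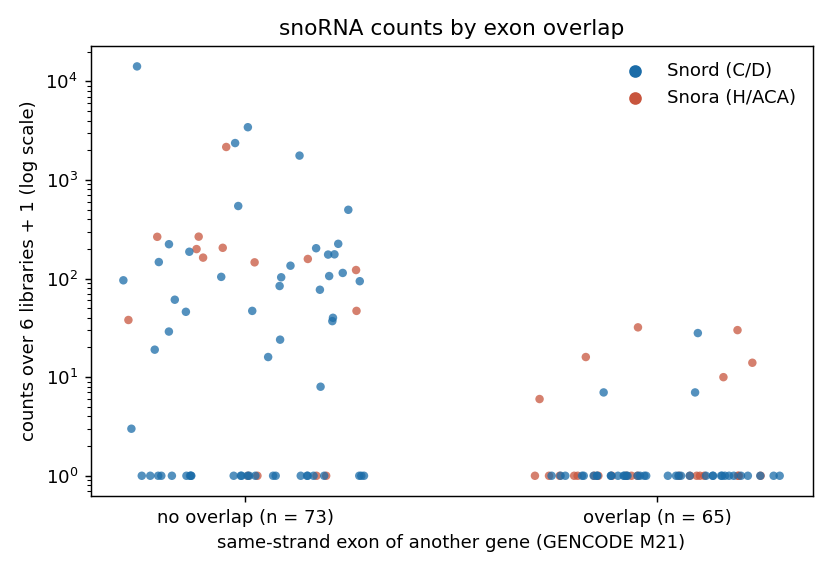
Counts over the 6 libraries plus 1 (vertical, log scale) for the 138 snoRNA genes in GENCODE M21, split by overlap with a same-strand exon of another gene; each point is 1 gene, blue for Snord and red for Snora, spread sideways for visibility. Overlapping genes reach at most 31 counts, and 56 of the 65 lie at the bottom, at 0 counts.

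The division was also seen within hosts, with exceptions. Of 8 hosts that hold members of both kinds, 6 had counts only for the members without an overlap. Of the others, 1 went the other way and 1 (Rcc1) had no counts at all. The Rcc1 members, Snora73a and Snora73b, also lie in the noncoding gene Snhg3 and were assigned to Rcc1 only. Snord15a and Snord15b, box C/D guides printed above, both lie in Rps3, a small-subunit ribosomal protein gene, and are identical at 107 of 162 aligned positions (66.0%). Snord15a, which no other exon overlaps, had 2365 counts, and Snord15b, which lies in a retained-intron exon of Rps3, had 0. In Nop56, Snord110 had 103 counts without an overlap and Snord57 had 0 with one. In Rpl23a, the host that went the other way, Snord42b had 27 counts with an overlap, while Snord42a and Snord4a had 0 without one on the same strand. These examples were chosen after their values were seen.

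SnoRNAs of hosts that GENCODE M21 types as noncoding were mostly uncounted. Of 47 such members 42 had no counts, the 17 Snord116 copies included, and the median host level was low, at 11.9 CPM. Where the host was at 50 CPM or more, a split made after the values were seen, 15 of 16 members were at 0. The exception was Snora15, with 31 counts, in Cct6a, a gene that codes for a protein despite its type in this annotation. Gas5 averaged 301 ± 38.2 CPM in WT and 304 ± 16.7 CPM in the knockout (SD, n = 3), while Snord47, Snord78 and Snord80, which lie in its retained-intron exons, were at 0. Snhg12 was at 56.6 ± 2.37 CPM and 61.4 ± 4.91 CPM, and its Snora16a, Snora44, Snora61 and Snord99 were at 0. At least Snora16a, Snora44 and Snora61 overlap its exons on the same strand, so for them host type and overlap cannot be told apart. Snhg5 was at 104 ± 3.53 CPM and 104 ± 4.42 CPM, and its Snord50a and Snord50b were at 0. The Snord116 genes belong to an imprinted cluster known for its expression in neurons, and their host Snhg14 averaged 11.2 ± 1.12 CPM in WT and 12.7 ± 1.21 CPM in the knockout. Between 67.2% and 100% of the stretches of 31 bases of each Snord116 copy also occur in other genes, so their zeros are uncertain.

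Of the snoRNAs that act in precursor processing, only Snord118 (U8) passed the filter. It had 71, 68 and 78 counts in WT and 127, 112 and 41 in the knockout libraries, or 4.65 ± 0.228 CPM and 4.60 ± 0.545 CPM. The genotypes overlapped, and the log2 fold change was 0.0015 (SE 0.17). Its counts are uncertain, since 32.4% of its stretches of 31 bases also occur in the predicted gene Gm24208. Snord13 (U13) had 46 counts over the 6 libraries. The 7 Snord3 symbols (U3) had at most 55 counts each, and 4 of them held fractional values. No sequence of these symbols was found in the annotations used, so stretches shared with other genes were not checked and their counts are uncertain. The U17 genes Snora73a and Snora73b, the U14 genes Snord14a, Snord14c, Snord14d and Snord14e, and Snord22 (U22) were listed at 0. Except for Snora73b, each of these overlaps another gene's exon on the same strand.

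As a check of the labels, Top3b averaged 91.0 ± 4.06 CPM in WT and 49.8 ± 1.66 CPM in the knockout, lower in 3 of 3 knockout libraries (log2 fold change -0.87) but not lost. Lymphocyte markers were present in every library. The 3 B cell genes summed to 1593 to 1917 CPM in WT and 1669 to 1705 CPM in the knockout, and the 4 T cell genes to 560 to 646 CPM and 632 to 657 CPM. Genotypes did not overlap for 0 of 3 B cell, 1 of 4 T cell and 1 of 2 natural killer markers, beside 11.0% of all tested genes. These were Cd3e (log2 fold change 0.17, higher) and the natural killer gene Klrb1c (-0.28, lower), each with an adjusted p of 0.83 by edgeR. The other natural killer marker, Ncr1, overlapped (-0.053). The 4 erythroid markers summed to 868 to 1502 CPM in WT and 705 to 1001 CPM in the knockout, and the 3 neutrophil markers to 387 to 665 CPM and 267 to 911 CPM. Their part in the snoRNA values was not tested. In such a mixture, fewer cells of a type and less RNA per cell cannot be told apart.

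No snoRNA gene differed between genotypes past the threshold. With the quasi-likelihood test of edgeR and Benjamini-Hochberg adjustment, 0 of the 32 tested members had an adjusted p under 0.05, beside 2 genes (0.0107%) of the 18716 tested in all, 1 higher and 1 lower (0.00534% each). At an unadjusted p under 0.05 there was 1 member by edgeR, lower in the knockout, beside 5.52% of all genes (1.83% higher and 3.69% lower), and there was 1 by DESeq2. Over the alternatives this count ran from 0, without WT replicate 2, to 2, under 5 of them. The genotypes did not overlap for 4 of the 32 members (12.5%), 2 higher and 2 lower in the knockout, beside 11.0% of all genes (5.39% higher and 5.63% lower). These shares were near those of all genes. Leaving out 1 library moved the log2 fold change by over 1.5 times for 30 of the 32 members, the exceptions being Snord15a and Snora78. The median SE of a tested member was 0.27 on the log2 scale, against 0.13 over all genes, so a snoRNA was measured less precisely than a typical gene.

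The median log2 fold change was 0.12 over the 23 tested Snord genes, 9 of them below 0, and 0.072 over the 9 tested Snora genes, 4 of them below 0. Over all tested genes it was -0.0029, with 50.9% of them below 0. Neither class median had a stable direction. Leaving out WT replicate 2 gave a Snord median of -0.026, and leaving out Top3b-KO replicate 2 gave 0.045. Leaving out WT replicate 1, 2 or 3 gave a Snora median of -0.075, -0.064 or 0.11. Leaving out Top3b-KO replicate 1 or 2 gave 0.0078 or 0.033, and the median was -0.15 with no filter on low counts.

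**Figure D2:**
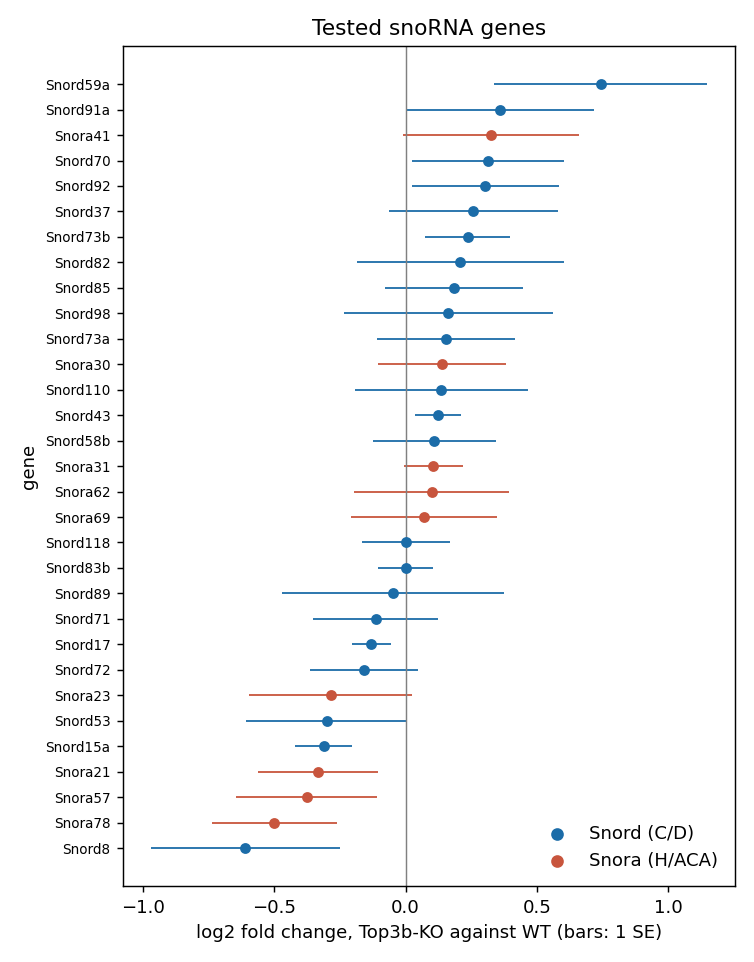
Log2 fold change of Top3b-KO against WT (horizontal) for 31 of the 32 tested snoRNA genes, ordered by value, with bars of 1 SE, blue for Snord and red for Snora. Values run from -0.61 for Snord8 to 0.74 for Snord59a, on both sides of 0 in each class.

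Summed over the class, Snord genes took 250, 245 and 263 CPM of the library total in WT and 226, 255 and 229 CPM in the knockout. The knockout replicate 2 lay within the WT range and the other 2 below it. Without Snord17 the means were 113 ± 3.49 CPM and 110 ± 4.82 CPM (SD, n = 3). Snora genes took 34.2, 33.3 and 40.0 CPM in WT and 38.5, 36.4 and 31.9 CPM in the knockout, with overlap.

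WT replicate 3 stood apart among the Snora genes. It held the highest of the 3 WT values for 8 of the 9 tested Snora genes, beside 10 of 23 Snord genes and 35.0% of all tested genes, a count made after the values were seen. Without Snora31, the summed Snora level was 20.7 CPM in WT replicate 3 and between 14.2 and 15.5 CPM in the other 5 libraries.

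Snord17 is a box C/D guide in an intron of Snx5, a sorting nexin gene, and had the most counts of all members. It was at 136, 136 and 147 CPM in WT and at 118, 141 and 123 CPM in the knockout libraries. Top3b-KO replicate 2 lay within the WT range, and the other 2 lay below it. The log2 fold change was -0.13 (SE 0.073), and the adjusted p by edgeR was 0.91. Leaving out Top3b-KO replicate 2 gave -0.21, and leaving out replicate 1 gave -0.069. The host Snx5 had a log2 fold change of 0.015 (SE 0.081).

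Snord43 and Snord83b are box C/D snoRNAs in introns of the same host, Rpl3, a large-subunit ribosomal protein gene. Snord43 was at 30.5, 29.2 and 31.5 CPM in WT and at 33.0, 35.8 and 29.9 CPM in the knockout, a log2 fold change of 0.12 (SE 0.089), or 0.061 when Top3b-KO replicate 2 was left out. Snord83b was at 18.1, 16.1 and 15.8 CPM in WT and at 16.3, 16.6 and 17.2 CPM in the knockout, a log2 fold change of -0.00025 (SE 0.10). Both overlapped between genotypes, and the sign of Snord83b changed with the scaling. Rpl3 itself had a log2 fold change of -0.064 (SE 0.068). The sequences of the 2 snoRNAs, printed above, are identical at 47.2% of aligned positions.

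Snord15a had the smallest p-value of the members. It was at 24.9, 26.4 and 22.9 CPM in WT and at 19.3, 22.8 and 16.9 CPM in the knockout libraries. All 3 knockout values lay below the WT values, although Top3b-KO replicate 2 and WT replicate 3 nearly met. The log2 fold change was -0.31 (SE 0.11), with an unadjusted p of 0.011 and an adjusted p of 0.82 by edgeR. Over the alternatives the adjusted p ran from 0.17 to 1.00, and it was 0.24 with the replicate number as a block. Leaving out Top3b-KO replicate 3 gave a log2 fold change of -0.23, and leaving out replicate 2 gave -0.43. The unadjusted p was 0.058 without WT replicate 2 and 0.059 when Top3b-KO replicate 3 was dropped. Its host Rps3 had a log2 fold change of -0.042 (SE 0.074).

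Snora31, the Snora gene with the most counts, lies in Tpt1, the gene of translationally controlled tumour protein. It was at 19.2, 19.1 and 19.2 CPM in WT and at 23.2, 21.1 and 16.6 CPM in the knockout. The WT libraries were nearly alike, and the knockout libraries lay on both sides of them. The log2 fold change was 0.11 (SE 0.11), or 0.21 when Top3b-KO replicate 3 was left out and 0.0078 when replicate 1 was.

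Snora78 had the smallest p-value of its class. It had 33, 34 and 38 counts in WT and 35, 38 and 20 in the knockout, or 2.13, 2.23 and 2.39 CPM against 1.43, 1.51 and 2.02 CPM. The genotypes did not overlap, with Top3b-KO replicate 3 close to the WT values. The log2 fold change was -0.50 (SE 0.24), with an unadjusted p of 0.051 and an adjusted p of 0.90 by edgeR. Snora78 lies in the noncoding host Snhg9, which had only 3 to 8 counts per library, and within Rps2 on the other strand. How strand was used in counting was not given in the sources used here, so reads from both strands cannot be told apart.

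Snord73b and Snord59a were the members with all 3 knockout values above the WT values. Snord73b, in the ribosomal protein gene Rps3a1, was at 4.78, 4.33 and 4.52 CPM in WT and at 5.90, 5.15 and 4.86 CPM in the knockout (log2 fold change 0.24, SE 0.16). Its neighbour Snord73a in the same host was at 1.63 ± 0.348 CPM and 1.74 ± 0.374 CPM (SD, n = 3), with overlap. Snord59a, in the ATP synthase gene Atp5b, had 4, 9 and 11 counts in WT and 19, 26 and 7 in the knockout, or 0.258, 0.590 and 0.691 CPM against 0.778, 1.03 and 0.708 CPM. WT replicate 3 and Top3b-KO replicate 3 nearly met. Its log2 fold change of 0.74 (SE 0.40) was the highest of the tested members with all libraries in, and became 0.42 without WT replicate 1. The adjusted p by edgeR was 0.91 for both genes.

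**Figure D3:**
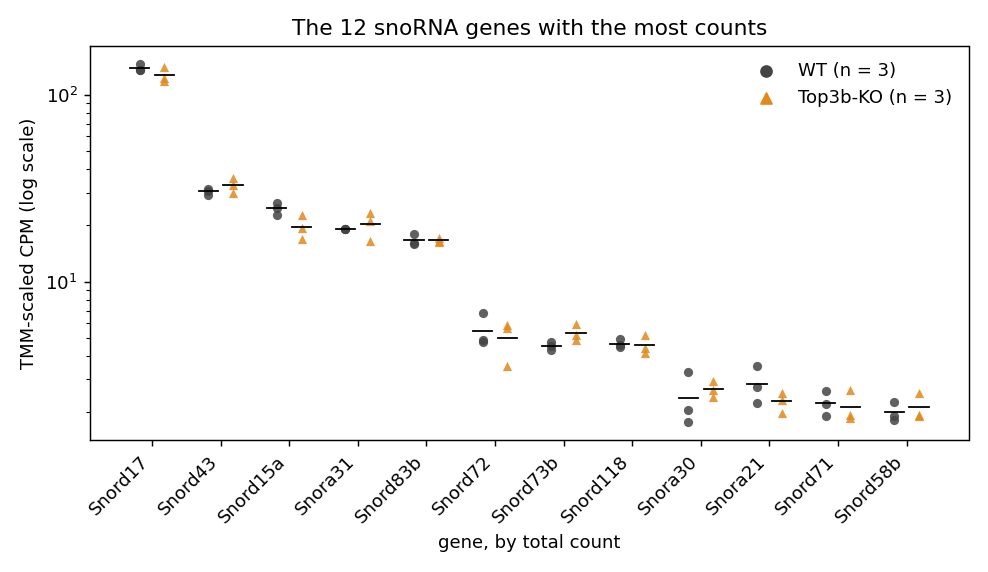
TMM-scaled CPM (vertical, log scale) of the 12 snoRNA genes with the most counts, with dark circles for the 3 WT libraries, orange triangles for the 3 Top3b-KO libraries and black lines for the means. Snord17 lies between 118 and 147 CPM, and of these 12 genes Snord15a (lower) and Snord73b (higher) have genotypes that do not overlap.

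The other tested box C/D genes overlapped between genotypes. Snord72, in Rpl37, was at 4.78, 4.85 and 6.79 CPM in WT and at 3.52, 5.66 and 5.87 CPM in the knockout (log2 fold change -0.16, SE 0.21). Snord8, in the chromatin remodeller gene Chd8, had the lowest value with all libraries in, -0.61 (SE 0.36), at 0.839, 0.918 and 1.57 CPM against 0.860, 0.555 and 0.809 CPM. WT replicate 3 was the high library there, and without it the value was -0.27.

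Snord53 and Snord92 share the host Wdr43, a gene of the U3 processome, and differed in sign. Snord53 averaged 1.41 ± 0.497 CPM in WT and 1.16 ± 0.077 CPM in the knockout (-0.30, SE 0.31), and Snord92 at 1.22 ± 0.135 CPM and 1.54 ± 0.273 CPM (0.30, SE 0.28). Neither passed the threshold, and without WT replicate 3 Snord53 was at 0.0083. Snord70 in Nop58 (0.31, from 0.12 to 0.52 with a library left out), Snord110 in Nop56 (0.14) and Snord82 in Ncl (0.21) also lie in genes for nucleolar proteins. Snord91a, in the ribosome maturation gene Tsr1, had a log2 fold change of 0.36 (SE 0.36), which ran from 0.083 without WT replicate 3 to 0.58 without WT replicate 1. Snord37, in the elongation factor gene Eef2, had one of 0.26 (SE 0.32), or 0.13 without Top3b-KO replicate 3. Snord58b, Snord71, Snord85, Snord89 and Snord98 had values between -0.11 and 0.18.

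The other tested box H/ACA genes overlapped as well. Snora21, in the ribosomal protein gene Rpl23, was at 2.71, 2.23 and 3.52 CPM in WT and at 2.33, 1.98 and 2.53 CPM in the knockout (-0.33, SE 0.23), a value of -0.14 without WT replicate 3. Snora57 was at 1.70 ± 0.365 CPM and 1.29 ± 0.118 CPM (-0.38, SE 0.27), and Snora23, in the nuclear import gene Ipo7, at 1.26 ± 0.398 CPM and 1.01 ± 0.0905 CPM (-0.29, SE 0.31). Without WT replicate 3 Snora23 was at -0.0092, and without WT replicate 2 Snora57 was at -0.20. Snora41, in the elongation factor gene Eef1b2, had a log2 fold change of 0.33 (SE 0.34), which was 0.86 without WT replicate 3 (unadjusted p 0.020), 0.067 without WT replicate 2, and 0.042 when Top3b-KO replicate 2 was left out. It was at 1.29, 0.983 and 2.64 CPM in WT and at 1.97, 2.65 and 1.21 CPM in the knockout, so that its libraries differed more within than between genotypes. Snora30 in Srcap (0.14), Snora62 in the ribosomal protein gene Rpsa (0.099) and Snora69 in the ribosomal protein gene Rpl39 (0.072) lay nearer 0. For Snora21, Snora30, Snora41, Snora57 and Snord58b, between 29.0% and 69.4% of the stretches of 31 bases also occur in a predicted gene elsewhere, so their counts are uncertain. Snora57, Snora23 and Snord8 also lie opposite a gene on the other strand.

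Each snoRNA was then set beside its host, since both derive from 1 primary transcript. Of the 32 tested members, 11 lie in ribosomal protein genes, 6 in genes for nucleolar or ribosome assembly proteins, 2 in translation factor genes, 9 in other protein-coding genes and 2 in noncoding hosts, and 2 have no annotated host. For 28 members, in 25 hosts, the host was tested too. Per kilobase of annotated length, the mean level was below that of the host for 23 members and above it for 5. These 5 were Snora30, Snord17, Snord89, Snord71 and Snord70. The host length merged the exons of all annotated transcripts of the gene, so it is at least as long as any single transcript. A shorter length would raise the host level per kilobase, so the members above their host could be fewer. How well RNAs this short were recovered, and whether reads came from unspliced host transcripts, was not tested. The values are therefore levels of counts, not of RNA molecules. The log2 difference in level ran from -5.80 for Snord37 in Eef2 to 2.91 for Snora30 in Srcap, with a median of -1.38.

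Members of 1 host could differ in level. Snord17 was at 561 CPM per kilobase and Snx5 at 106, a log2 difference of 2.40. Relative to Rpl3, Snord43 had a log2 difference of -0.25 and Snord83b one of -0.97. Relative to Rps3a1, Snord73b had a log2 difference of -3.96 and Snord73a one of -5.45. Snord53 and Snord92 were alike, with log2 differences of -1.12 and -1.13 relative to Wdr43. Across the 28 members, Spearman's correlation of snoRNA level with host level was 0.43, a description across genes that share libraries and in part hosts.

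**Figure D4:**
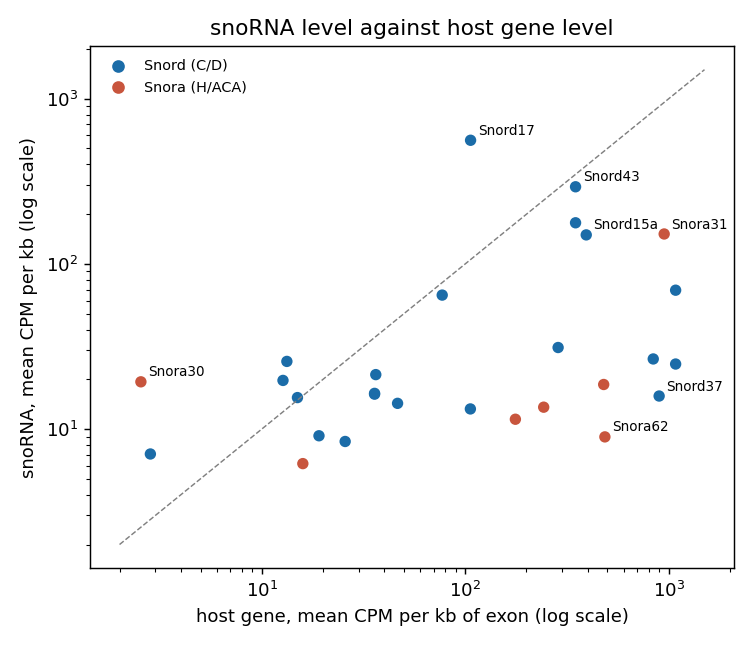
Mean CPM per kilobase of the snoRNA (vertical, log scale) against mean CPM per kilobase of exon of its host gene (horizontal, log scale) for the 28 tested snoRNA genes with a tested host, blue for Snord and red for Snora; the dashed line marks equal levels. There are 23 genes below the line and 5 above it, and Snord17 at 561 is the highest snoRNA.

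Genotype differences of hosts were too small for a comparison with those of their snoRNAs. Host log2 fold changes lay between -0.14 and 0.15, and their median size of 0.064 was below their median SE of 0.071, while the median SE of the members was 0.28. Whether snoRNAs follow their hosts could therefore not be read from these values. The median change in the snoRNA level relative to its host was 0.12 higher in the knockout on the log2 scale. The median relative level over the members, taken per library, had the opposite direction, at -1.34, -1.31 and -1.38 in WT and -1.51, -1.47 and -1.54 in the knockout. The 2 summaries of the same values thus gave no common direction.

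The RNAs of genes for snoRNA particle proteins were measured more precisely than the snoRNAs, and 0 of the genes on the 6 lists passed the threshold. Fbl, the methyltransferase of box C/D particles, averaged 116 ± 9.33 CPM in WT and 118 ± 0.601 CPM in the knockout (SD, n = 3). Its partners Nop56, Nop58 and Snu13 had log2 fold changes of 0.031, 0.064 and -0.073. Dkc1, the pseudouridine synthase of box H/ACA particles, was at 99.7 ± 4.61 CPM and 108 ± 5.01 CPM (0.11, SE 0.068). Its partners Gar1, Nop10 and Nhp2 had log2 fold changes of 0.11, 0.083 and -0.057. All 8 overlapped between genotypes, where 11.0% of all genes did not.

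The other lists held few genes at an unadjusted p under 0.05, a threshold that 5.52% of all genes passed. Of 12 assembly factors, which build the particles, none did, and Nolc1, Ruvbl2 and Ruvbl1 had log2 fold changes of 0.044, -0.083 and 0.020. Of 17 tested processing and decay genes, 1 did: Tgs1, which forms the cap of U3 and related RNAs, averaged 76.2 ± 4.13 CPM in WT and 85.7 ± 2.94 CPM in the knockout (0.17, unadjusted p 0.024, adjusted p 0.86 by edgeR). The exonucleases Xrn2 and Xrn1 were at 0.070 and 0.12. Of 24 U3 processome genes, Wdr43 did (0.15, unadjusted p 0.036, adjusted p 0.88 by edgeR). Of 9 genes of RNA polymerase I and the nucleolus, Ncl, which codes for nucleolin, did, at 1027 ± 34.5 CPM and 1133 ± 49.7 CPM (0.14, unadjusted p 0.045, adjusted p 0.89 by edgeR). The genotypes did not overlap for 0 of the 12 assembly factors, 2 of the 17 processing and decay genes, 7 of the 24 processome genes (6 higher and 1 lower) and 1 of the 9 polymerase I and nucleolus genes, beside the same 11.0%. The list medians lay between -0.020 and 0.095.

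The snoRNA values were also set beside those of related noncoding RNA genes. The noncoding hosts (Snhg genes and Gas5) had a median log2 fold change of 0.12 over 15 tested genes. Of these, 14 were above 0 and 1 (6.67%) was below, where 50.9% of all tested genes were below 0. At an unadjusted p under 0.05 by edgeR there was 1, Snhg15, higher in the knockout, beside 1.83% of all genes. Other structured small RNAs (Scarna, Rnu, Rn7s and related genes) had a median of -0.17 over 12 tested genes, with 5 at an unadjusted p under 0.05, lower in the knockout, against 1 of 32 snoRNA genes and 3.69% of all genes. Genotypes did not overlap for 33.3% of the other small RNAs and 20% of the noncoding hosts, against 12.5% of the snoRNA genes and 11.0% of all genes. In both comparisons 0 genes passed the adjusted threshold by edgeR, and the difference between these groups was not tested.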

How the data were processed

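Ribosomal-RNA-depleted total RNA of 3 WT and 3 Top3b-KO splenocyte libraries had been sequenced in paired ends. The authors deposited 1 table of expected counts per gene symbol, and per the submitters' processing notes STAR and mm39 were used for it. How genes were counted, with which strand setting and annotation, was not given in the sources used here. Library kits described in the labels number 2, both strand-specific, and read lengths of both 150 and 101 bases are stated. Of the 56413 symbols, 72 hold fractional values, and values were rounded to integers for the test.

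Genes were filtered with filterByExpr and tested with edgeR 4.0.16 in R 4.3.3 (TMM factors, robust quasi-likelihood F test, two-sided, genotype only), with Benjamini-Hochberg adjustment over 18716 genes and a threshold of 0.05. CPM values are TMM-scaled unless given as shares of the library total. The SE of a log2 fold change is its size divided by the square root of F. Scripts were tested on simulated data. Alternatives were other scalings, filters, DESeq2 1.42.0, limma-voom (limma 3.58.1), a replicate block and leaving out each library. Leaving out symbols with fractional values was added after the data were seen.

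Hosts, exon overlaps, lengths and sequences came from GENCODE M21 (GRCm38), matched by symbol for 138 of 148 members, and 2 further members from RefSeq (GRCm38.p6). This is not the authors' build, and no coordinates were carried over. Levels against hosts used log2 of counts plus 0.5. In each class, the genes named were the 10 with the most counts, the 4 with the smallest unadjusted p in each direction, those without overlap between genotypes, those of precursor processing, and core list genes. Others were chosen after their values were seen. The values of 1 tested member are not reported here, though it is included in counts and medians. Members and lists were chosen with earlier results of these data known. Replicate numbers were not treated as pairs in the main design. Same-numbered libraries correlated at 0.185, -0.0136 and 0.0138 in their deviations from the group means, and the others at -0.0992 to 0.093. With 3 libraries per genotype, whose deviations are tied to each other, this check cannot tell whether the libraries were paired.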

Additional observations from a re-analysis of the deposited data

How the results depend on the processing

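Under all 16 alternatives, 0 snoRNA genes passed the threshold. Of 506 single values, 30 changed sign, 24 of them by leaving out a library, in 14 of the 32 genes. Outside that, Snord83b became 3.0e-05 with RLE factors, 0.0035 with upper-quartile factors and 0.0084 with no filter, and Snord118 became -0.010 with library totals, -0.0021 with the replicate block and -0.0015 with DESeq2. With a library left out, the ranges were -0.031 to 0.44 for Snora30, -0.064 to 0.42 for Snora62, -0.075 to 0.36 for Snora69, -0.054 to 0.28 for Snord110, -0.096 to 0.051 for Snord118, -0.51 to 0.0083 for Snord53, -0.054 to 0.21 for Snord58b, -0.23 to 0.0011 for Snord71, -0.29 to 0.076 for Snord72, -0.015 to 0.26 for Snord73a, -0.092 to 0.87 for Snord82, -0.037 to 0.060 for Snord83b, -0.48 to 0.25 for Snord89 and -0.21 to 0.68 for Snord98. The Snord median was 0.0084 with no filter, where 45 genes entered, and -0.026 to 0.12 with a library left out. The summed Snora ratio ran from -0.071 to 0.076 with a library left out, within the spread between libraries.

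Over all genes, 2 passed in the design used, 44 with no filter, 41 with the replicate block, 6 with DESeq2, 1 with limma-voom, 1 without robust fitting, and 1 to 32 with a library left out (32 when WT replicate 3 was left out, 9 when Top3b-KO replicate 1 was). The cause was not tested. With the replicate block the Snord median was 0.12 and the Snora median 0.088, and no snoRNA call changed. Low counts limit the members, whose median SE was 0.27.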
